A study of Mus musculus with 36 samples.

Results

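Islands of H2AK119ub1 and H3K27me3 were compared across gene promoters in control neurospheres, using the 2 libraries of each mark, which are 4 of the 36 samples of the series and 4 of its 24 samples with an island file. Neurospheres are floating cultures of neural progenitors, here grown with FGF2 and EGF from hippocampi of mice at postnatal day 0. The control (Ctrl) label covers the genotypes Kdm2bfl/+ and Kdm2bfl/fl, in which the Kdm2b exon that codes for the CxxC zinc finger is flanked by loxP sites. The labels do not say whether the 2 libraries of a mark came from separate cultures or animals, so the spread between them may be technical. Other libraries enter only where they are named: H3K36me2 from the same control neurospheres, both Polycomb marks from conditional knockout (cKO) neurospheres, labelled Kdm2bEmx1-delta-CxxC, in which Cre driven by Emx1, a gene of the dorsal forebrain lineage, removes that exon, and both marks from control hippocampus at postnatal day 0.

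Polycomb complexes keep developmental genes silent. PRC1 carries the ubiquitin ligases RING1 and RNF2 and places H2AK119ub1, a ubiquitin on histone H2A. PRC2 carries EZH1 or EZH2 and places H3K27me3, a methylation of histone H3. Each complex has subunits that read the mark of the other, and KDM2B, through its CxxC zinc finger, brings a PRC1 variant to unmethylated CpG-rich DNA. Both marks are known to lie together over silent homeobox, Gata and Wnt genes in many cell types.

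Promoters were windows reaching 2 kb upstream and 2 kb downstream of the start of each protein-coding gene on the 19 autosomes of the mouse build mm10. There were 20807 such promoters. A promoter was called for a library when at least 1 bp overlapped an island, which is a broad region of reads over input found by the program SICER. Of all promoters, 1667 had an island in both libraries of both marks, 525 had H2AK119ub1 in both of its libraries and H3K27me3 in neither, 1161 had H3K27me3 in both of its libraries and H2AK119ub1 in neither, and 9999 had no island in any of the 4 libraries. These groups held 8.01%, 2.52%, 5.58% and 48.1% of promoters. The remaining 7455 promoters (35.8%) differed between the 2 libraries of a mark and were placed in no group. H3K27me3 was called in both libraries at 22.9% of promoters and H2AK119ub1 at 11.6%, whatever the other mark did.

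An H2AK119ub1 library stood apart. Replicate 1 of H2AK119ub1 had 43160 autosomal islands over 318.5 Mb and replicate 2 had 20920 islands over 116.2 Mb, against 42884 islands over 245.2 Mb and 53055 over 239.3 Mb for H3K27me3. Replicate 2 also held 4647174 counts in islands, where the other 3 libraries held 12663511 to 17315325. Counts inside islands move with the length called and are not the sequencing depth, which the files do not give. The largest set of promoters that fell outside the groups, 3045, had an island in H2AK119ub1 replicate 1 alone, and 1760 had both H3K27me3 libraries with H2AK119ub1 replicate 1 but not replicate 2. Without replicate 2, 3427 promoters had both marks, 3570 had H2AK119ub1 only and 1330 had H3K27me3 only. Without replicate 1 these counts were 1836, 989 and 2921.

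The promoters of 5 leading genes are printed as examples, not as typical members of their groups. For each, the 200 bases before the gene start are printed 5′ to 3′ on the strand of the gene, read from build GRCm38, with every CG in capitals, because CG is what the CxxC domain binds when unmethylated. The 200 bases of each hold no annotated exon. Edn2 stood for both marks, Elfn2 and Cotl1 for promoters with H2AK119ub1 only, and Begain and Krt83 for promoters with H3K27me3 only. In a single library, the missing mark was missing from the promoter window but not from the whole island. The nearest H3K27me3 island in replicate 2 lay 2.83 kb from the Elfn2 start and 3.86 kb from the Cotl1 start, reaching into the H2AK119ub1 replicate 2 islands of those genes. The nearest H2AK119ub1 island in replicate 1 lay 5.62 kb from the Begain start and 9.49 kb from the Krt83 start, reaching into their H3K27me3 islands. In the other library of the missing mark the distances were 68.4 kb at Elfn2, 5.46 kb at Cotl1, 93.0 kb at Begain and 174 kb at Krt83. Those nearest islands lay outside the islands of these genes.
Edn2 (chr4:120161006-120161205, plus strand): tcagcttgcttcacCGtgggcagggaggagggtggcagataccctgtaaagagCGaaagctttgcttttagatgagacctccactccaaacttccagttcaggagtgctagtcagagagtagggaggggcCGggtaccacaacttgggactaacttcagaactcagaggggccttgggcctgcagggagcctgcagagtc
Elfn2 (chr15:78718772-78718971, minus strand): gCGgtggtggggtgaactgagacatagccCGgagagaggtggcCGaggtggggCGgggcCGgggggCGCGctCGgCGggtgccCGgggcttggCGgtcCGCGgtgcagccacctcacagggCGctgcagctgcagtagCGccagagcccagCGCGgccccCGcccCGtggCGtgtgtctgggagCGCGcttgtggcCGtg
Cotl1 (chr8:119840545-119840744, minus strand): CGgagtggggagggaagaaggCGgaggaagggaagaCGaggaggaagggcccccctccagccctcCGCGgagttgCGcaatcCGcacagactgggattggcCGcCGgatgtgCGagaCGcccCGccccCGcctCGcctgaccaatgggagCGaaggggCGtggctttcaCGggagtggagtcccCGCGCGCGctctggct
Begain (chr12:109068218-109068417, minus strand): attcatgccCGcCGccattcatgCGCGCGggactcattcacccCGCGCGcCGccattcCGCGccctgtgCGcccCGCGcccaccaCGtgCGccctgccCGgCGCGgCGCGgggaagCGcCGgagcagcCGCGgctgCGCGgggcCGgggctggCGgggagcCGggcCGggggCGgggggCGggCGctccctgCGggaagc
Krt83 (chr15:101491513-101491712, minus strand): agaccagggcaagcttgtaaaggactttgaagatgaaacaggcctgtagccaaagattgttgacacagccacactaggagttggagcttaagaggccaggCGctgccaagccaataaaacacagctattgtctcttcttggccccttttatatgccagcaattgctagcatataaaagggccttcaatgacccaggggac
The Edn2 and Krt83 stretches held 3 and 1 CG, while Begain held 35, Elfn2 23 and Cotl1 21. CG-rich and CG-poor stretches thus both occurred among H3K27me3-only promoters. Over all promoters the median was 7 CG in these 200 bases and 42.8% had 10 or more. The median was 13 at H2AK119ub1-only promoters, 10 at promoters of both marks, 6 at promoters with no island and 4 at H3K27me3-only promoters, and 64.8%, 50.9%, 40.7% and 29.3% of these groups had 10 or more.

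The same order was seen with a window of 1 kb around the start, except without H2AK119ub1 replicate 2. A promoter was called CpG-rich when that window had over 50% GC and a ratio of observed to expected CpG over 0.6, which held for 9506 of 20807 promoters (45.7%). CpG-rich promoters made up 67.8% of the H2AK119ub1-only group, 53.6% of the group with both marks, 45.1% of promoters with no island and 30.3% of the H3K27me3-only group. Without H2AK119ub1 replicate 2 the shares were 54.9%, 43.9%, 46.2% and 32%, so that promoters of both marks fell below those with no island. The median observed to expected ratio was 0.715 at H2AK119ub1-only promoters, 0.627 with both marks, 0.548 with no island and 0.402 with H3K27me3 only. Among promoters that carried H2AK119ub1 the CpG-rich share was 49.1% in replicate 1 and 57.8% in replicate 2, and for H3K27me3 it was 41.5% and 39.0%. Both H2AK119ub1 libraries were therefore above both H3K27me3 libraries, and the means differed by 13.2 percentage points (53.4% ± 6.21 against 40.3% ± 1.77, SD, n = 2 each). The exact permutation test over libraries gave p = 0.333, which is the smallest value 2 libraries against 2 can give, and 0.778 after Benjamini-Hochberg adjustment over the 7 library comparisons made.

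**Figure D1:**
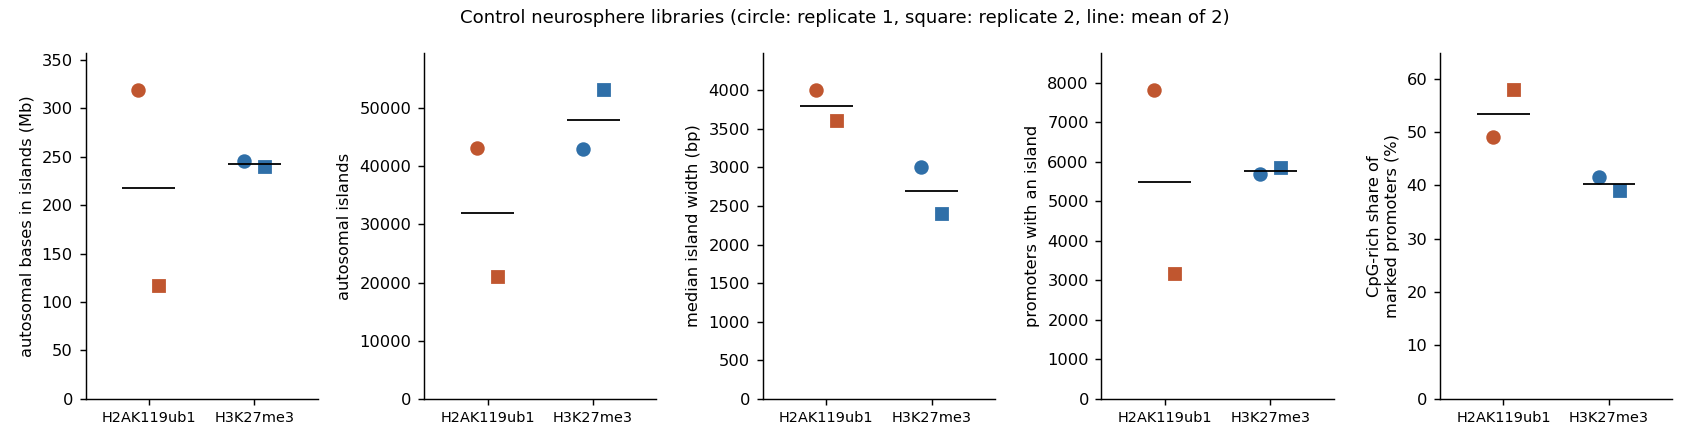
Values of the 4 control neurosphere libraries, with circles for replicate 1, squares for replicate 2 and lines for the mean of 2. The panels give autosomal bases in islands (Mb), number of autosomal islands, median island width (bp), promoters with an island, and the CpG-rich share of those promoters (%). H2AK119ub1 replicate 2 lies far below the other libraries in covered length, while the CpG-rich share is higher in both H2AK119ub1 libraries than in both H3K27me3 libraries.

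The other library comparisons had the same limit. Islands of H2AK119ub1 had median widths of 4000 and 3600 bp and those of H3K27me3 3000 and 2400 bp, a difference of 0.50 in mean log2 width with no overlap of the libraries (p = 0.333, exact permutation test). The number of islands (p = 0.667), the covered length (p = 1.0), the number of promoters with an island (p = 1.0; 7808 and 3152 against 5681 and 5850) and the share of island bases in promoters (p = 0.667) overlapped between the marks in exact permutation tests. Promoters held 7.19% and 6.21% of H2AK119ub1 island bases and 6.13% and 6.31% of H3K27me3 island bases, against 3.14% of all autosomal bases. Away from promoters the 2 libraries of each mark did not overlap with those of the other. Islands that lay over 2 kb from any start but touched a protein-coding gene made up 42.1% and 39.8% of H2AK119ub1 islands and 25.7% and 27% of H3K27me3 islands. Any overlap counted, so a wider island meets a gene more readily. Islands that touched no such gene and lay as far from any start made up 42.6% and 45.7% of H2AK119ub1 islands and 62.4% and 62.6% of H3K27me3 islands.

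Base by base, the overlap of the marks was partial. The 2 H3K27me3 libraries shared 178.4 Mb, which was 72.8% and 74.5% of each. The 2 H2AK119ub1 libraries shared 75.2 Mb, which was 23.6% of replicate 1 and 64.7% of replicate 2. H2AK119ub1 replicate 1 shared 41.0% and 41.2% of its bases with the H3K27me3 libraries, and replicate 2 shared 58.9% and 57%. These shares are limited by covered length, which for H2AK119ub1 replicate 2 was the smallest. H2AK119ub1 islands covered 12.9% and 4.72% of the autosomes and H3K27me3 islands 9.96% and 9.72%. Each share in common between the marks was above these values. Of the bases called in both H2AK119ub1 libraries, 67.1% were also called in both H3K27me3 libraries and 22.8% in neither. Of the bases called in both H3K27me3 libraries, 28.3% were called in both H2AK119ub1 libraries and 30.9% in neither.

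Islands were wider at promoters of both marks than at promoters of a single mark. Counting the widest island over each promoter, the median width in the group of both marks was 13.2 and 10.6 kb for H2AK119ub1 and 18.8 and 14.6 kb for H3K27me3. At H2AK119ub1-only promoters it was 9.0 and 4.0 kb, and at H3K27me3-only promoters 5.0 and 3.8 kb. At promoters that differed between libraries it was 13.4 and 3.4 kb for H2AK119ub1 and 8.8 and 6.6 kb for H3K27me3, so that in H2AK119ub1 replicate 1 these were as wide as promoters of both marks. Over all called promoters the medians were 13.2 and 5.8 kb for H2AK119ub1 and 9.6 and 7.2 kb for H3K27me3. The share of promoters with both marks was larger where H3K27me3 was wider. It was 7.39% of the 203 promoters whose mean H3K27me3 width was up to 2 kb, 28.8% of the 1175 at 5 to 10 kb, and 76.8% of the 332 above 50 kb. H3K27me3-only promoters made up 71.4% of the first of these classes and 1.81% of the last. For the width of H2AK119ub1 the direction was the same, with both marks at 33.3% of the 36 narrowest promoters and 87.6% of the 170 above 50 kb. A wider island reaches more promoters, so neighbouring genes under an island are counted more than once. Of promoters of both marks 48.4% had a neighbouring gene in the same group, against 19% of H2AK119ub1-only and 40.3% of H3K27me3-only promoters. These groups held 8.01%, 2.52% and 5.58% of all promoters, and a larger group has more such neighbours by its size alone. Whether island width adds to that was not tested.

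Within the group of both marks, H2AK119ub1 islands were the narrower of the pair by their medians. Their median widths were 11900 bp ± 1838 against 16700 bp ± 2970 (SD, n = 2 each), a difference of -0.49 in mean log2 width (p = 0.333 in the exact permutation test, 0.778 adjusted). Without H2AK119ub1 replicate 2 the group became larger and the difference was 0.000994. Gene by gene, both H2AK119ub1 islands were narrower than both H3K27me3 islands at 584 of 1667 promoters (35.0%) and wider than both at 168 (10.1%), while at 915 the libraries overlapped. Comparing replicate 1 libraries, the H2AK119ub1 island lay inside the H3K27me3 island at 48.3% of promoters, the reverse held at 20.7%, the pair was staggered at 27.1% and did not overlap at 2.52%. For replicate 2 libraries these shares were 38.1%, 17.3%, 38.3% and 5.64%. Across the 1667 promoters, which are not independent of each other, Spearman's rho of island width was 0.588 and 0.673 between marks of the same replicate number, 0.565 between the H2AK119ub1 libraries and 0.838 between the H3K27me3 libraries. All of these pairs share gene positions and base composition.

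**Figure D2:**
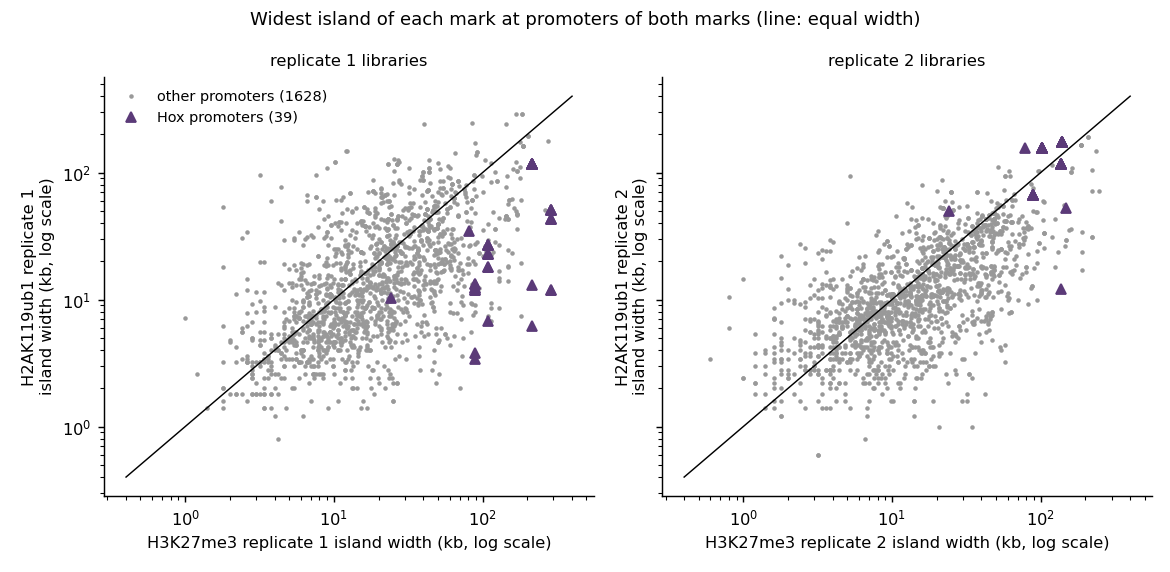
Width of the widest island over each of the 1667 promoters of both marks, H3K27me3 on the x axis and H2AK119ub1 on the y axis (kb, log scales), for replicate 1 (left) and replicate 2 (right). Each point is a promoter, triangles are the 39 Hox promoters and the line marks equal width. More points lie under the line than above it, and the Hox promoters all lie under it in replicate 1 and on both sides of it in replicate 2.

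The groups also differed in where islands lay within the promoter. At promoters of both marks the gene start itself lay inside an island at 92.9% and 72.2% for H2AK119ub1 and 85.8% and 85.1% for H3K27me3. At H3K27me3-only promoters it did at 57.7% and 56.6%, and the islands leaned upstream: at 2 kb before the start 67.7% and 60.6% of promoters were covered, and at 2 kb after it 46.2% and 41.2%. At H2AK119ub1-only promoters the 2 libraries differed. Replicate 1 covered the start of 67.4% of them and 75.4% at 2 kb after it, whereas replicate 2 covered 58.5% at 2 kb before the start, 19.4% at the start and 49.7% at 2 kb after it. The dip of replicate 2 at the start was shallower at promoters of both marks, from 78.8% to 72.2% and back to 78.1%. The median distance from the start of an H2AK119ub1-only gene to the nearest H3K27me3 island was 19.8 and 16.2 kb, and from an H3K27me3-only gene to the nearest H2AK119ub1 island 22.7 and 61.2 kb. From genes with no island it was 46.3 and 36.8 kb to H3K27me3 and 51.1 and 103 kb to H2AK119ub1, so the missing mark lay nearer to genes of a single mark than to genes with no island. Over all genes, those with the mark included, it was 16.0 and 12.9 kb to H3K27me3 and 8.16 and 44.3 kb to H2AK119ub1, shorter than from genes of a single mark. At the border of the rule, 94 to 170 promoters per library were called with at most 200 bp covered and 84 to 172 were missed with an island within the next 200 bp.

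**Figure D3:**
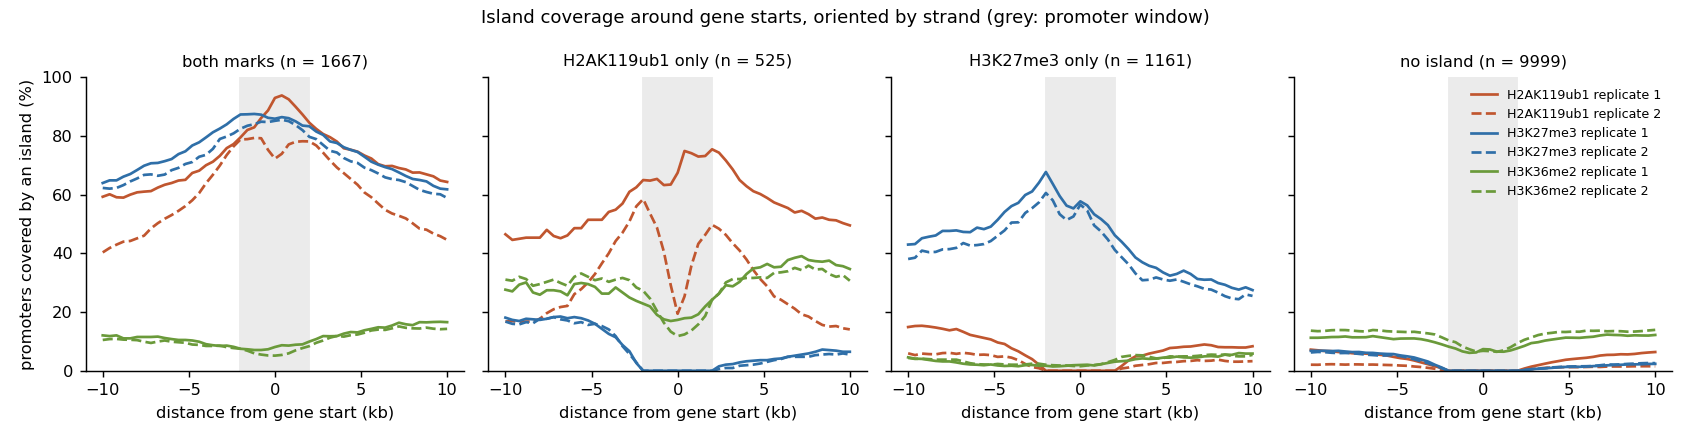
Share of promoters covered by an island (%, y axis) by distance from the gene start (kb, x axis, negative upstream) in 4 groups of promoters, for H2AK119ub1 (orange), H3K27me3 (blue) and H3K36me2 (green), with solid lines for replicate 1 and dashed lines for replicate 2. The grey band is the window that defined the groups, so values of 0 inside it follow from the rule. H2AK119ub1 replicate 2 falls to 19.4% at the start of H2AK119ub1-only genes, while H3K36me2 is highest around this group.

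Many transcription factors of the body plan had both marks. All 39 Hox genes, which set position along the body axis, had both marks in all 4 libraries, against 8.01% of all promoters. So did all 5 Gata genes, 85 of 100 homeobox genes outside the Hox clusters, 25 of 41 Forkhead genes, 6 of 9 Pax genes and 9 of 15 T-box genes. Of 16 endoderm and liver genes 10 had both marks, and so had 12 of 17 genes of the ventral telencephalon and of GABAergic neurons, a fate that dorsal progenitors do not normally take. The neuronal lineage list had 9 of 20. Other lists of cell types foreign to neurospheres had fewer, with 1 of 10 microglia genes, 1 of 10 endothelial genes and 2 of 12 muscle genes.

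The Hox clusters differed in how the islands were cut. Median island widths over the 39 Hox promoters were 109.6 and 101.6 kb for H3K27me3, 155.0 kb for H2AK119ub1 replicate 2 and 27 kb for replicate 1, beside 9.6, 7.2, 5.8 and 13.2 kb over all called promoters. Replicate 1, the library with the most covered length, split the 11 promoters of the Hoxa cluster on chromosome 6 among 5 islands of 6.8 to 35.0 kb. Replicate 2 joined them in 1 island of 155.0 kb. The 9 promoters of the Hoxd cluster on chromosome 2 lay under 6 islands of at most 13.2 kb in replicate 1 and under 2 islands of 66.2 and 50 kb in replicate 2. In Hoxb on chromosome 11 both H2AK119ub1 libraries had 3 islands, the widest 117.4 and 116.6 kb. Every Hox promoter was covered in full by both H3K27me3 libraries and by H2AK119ub1 replicate 2, and 34 of 39 by replicate 1.

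By the mean width over the 4 libraries, the widest islands at promoters of both marks lay on chromosome 4 over Edn2, the gene of endothelin 2, and Foxo6, a forkhead factor. There they measured 195.4 and 191.8 kb for H2AK119ub1 and 202.8 and 208.0 kb for H3K27me3, so that the widths of the 4 libraries were close to each other. The H3K27me3 replicate 1 island ran from 120107401 to 120310200 and held 28171 counts, or 139 per kb, against 92.8 per kb in H2AK119ub1 replicate 1. Next in order were Engase on chromosome 11, Cbfa2t3 and Pabpn1l on chromosome 8, Ass1 and Hmcn2 on chromosome 2, Casz1 on chromosome 4, and Hoxc4 and Hoxc6 on chromosome 15. At Casz1, a zinc finger factor, widths were 111.2 and 147.2 kb for H2AK119ub1 and 177.8 and 236.2 kb for H3K27me3. At Ass1, an enzyme of arginine synthesis, the order was the other way in replicate 1, with 291.8 kb of H2AK119ub1 against 169.0 kb of H3K27me3, and 115.8 against 118.8 kb in replicate 2.

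Lists differed in how often H3K27me3 was the wider mark. All 5 Gata promoters had both H2AK119ub1 islands narrower than both H3K27me3 islands, as did 4 of 6 Pax promoters, 52 of 85 homeobox promoters outside the Hox clusters and 8 of 13 Wnt ligands, against 35.0% over the whole group. None of these lists had a promoter with H2AK119ub1 wider in all comparisons, against 10.1% over the whole group. The Gata, Pax and Wnt lists, with 5, 6 and 13 promoters, are too short to be told apart from that share. Of Hox promoters 18 of 39 had H2AK119ub1 narrower in all comparisons and 21 overlapped, of Forkhead promoters 10 of 25 had it narrower and 1 wider, and of T-box promoters 2 of 9 had it narrower and 1 wider. At Gata4, a factor of heart and endoderm, H2AK119ub1 islands measured 11.8 and 59.8 kb and H3K27me3 islands 87.6 and 103.8 kb. At Pax2, a factor of midbrain and kidney, they measured 50.8 and 71.2 kb against 264.8 and 223.2 kb. The 6 Polycomb subunit genes with both marks went the other way, with 0 narrower and 3 wider, against 35.0% and 10.1% over the whole group. Among those 3 was Cbx2, a PRC1 subunit that reads H3K27me3, with H2AK119ub1 islands of 148.6 and 33.2 kb and H3K27me3 islands of 12 and 25.6 kb.

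In the Wnt pathway, of 19 ligands 13 had both marks, 1 had H3K27me3 only and none lacked islands, against 8.01%, 5.58% and 48.1% of all promoters. Wnt6 and Wnt10a, neighbours on chromosome 1, shared islands of 33.0 and 15.6 kb of H2AK119ub1 and 52.0 and 52.2 kb of H3K27me3. Wnt3 had H3K27me3 islands of 43.0 and 40.8 kb and H2AK119ub1 of 53.0 kb in replicate 1, with no island in replicate 2. Wnt7b had both marks, with H2AK119ub1 islands of 21.4 and 5.4 kb and H3K27me3 islands of 9.0 and 10.2 kb. Of 10 Frizzled receptors 2 had both marks, 2 had H2AK119ub1 only and 3 had no island, against 8.01%, 2.52% and 48.1% of all promoters. Fzd7 was among the H2AK119ub1-only promoters, with islands of 4.6 and 11.6 kb and its nearest H3K27me3 island 2.42 kb from the start in both libraries, just outside the window. Lef1, a nuclear effector of the pathway, had islands of 14.8 and 15.4 kb of H2AK119ub1 and 23.2 and 21.2 kb of H3K27me3. Sfrp2, a secreted antagonist, had both marks, but H3K27me3 covered 27% and 2% of its promoter where H2AK119ub1 covered 100% and 38.0%.

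The H2AK119ub1-only group, 2.52% of all promoters, held few members of any list. Its largest counts were 6 of 385 genes named Zfp, 3 of 100 homeobox genes outside the Hox clusters, 3 of 66 histone genes and 3 of 12 oligodendrocyte lineage genes. For the homeobox genes that is near the share of all promoters. Emx2, a factor of the dorsal forebrain on chromosome 19, had H2AK119ub1 islands of 19.4 and 13.8 kb, and its nearest H3K27me3 islands were 45.0 and 3.37 kb away. Gsx1, a ventral forebrain factor, had 11.8 and 11.4 kb, and Nkx2-2, a factor of ventral progenitors and oligodendrocytes, had 3.6 and 7.6 kb. The 3 oligodendrocyte lineage genes were Nkx2-2, Cspg4 (35.6 and 13.4 kb) and Olig1 (6.6 and 7.4 kb, covering 100% of the promoter in both libraries). Its neighbour Olig2 had H2AK119ub1 in replicate 1 alone. The progenitor matrix gene Tnc and the Sox factor Sox6 were in it too, with islands of 4.0 and 2.2 kb and of 7.4 and 8.2 kb. Leading the group by coverage and width was Elfn2 on chromosome 15, a synaptic adhesion gene, with islands of 136.2 and 15.0 kb. It was followed by Cotl1 (59.8 and 15.0 kb), Tle6 (58.8 and 5.6 kb), Orm3 (45.8 and 7.8 kb), Man2a2, Sned1, Tcn2, Cyb561d1, B3gnt9 and Igdcc3. Replicate 1 was the wider at all of these 10 genes except Cyb561d1 (17 and 29.6 kb) and Igdcc3 (11.8 and 29.8 kb). Among symbol families of at least 20 genes the largest shares of this group were 4 of 27 genes named St, 4 of 33 named Cdc, 2 of 20 Taf, 2 of 21 Stk and 3 of 32 Arhgap, beside 2.52% of all promoters. These rest on 2 to 4 genes each.

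Other gene families stood out in the H3K27me3-only group. Clustered protocadherins, which give neurons their surface identity, had 28 of 57 promoters in it and 0 with both marks, and keratins had 25 of 53 in it and 1 with both marks, against 5.58% of all promoters. H3K27me3 was called in both libraries at 36 of the 53 keratins, while H2AK119ub1 was called at 11 in replicate 1 and 1 in replicate 2. Protocadherin islands were narrow, with medians of 2.6 and 2.4 kb, and keratin islands wide, with 19 and 9.4 kb. With every library limited to the covered length of the smallest, 12 protocadherins and 6 keratins were H3K27me3 only. Beta-defensins had 9 of 42 promoters in the group and genes named Zfp 51 of 385. By symbol the leading families were Pcdhb (11 of 22), Krt (25 of 53), the chemokines Ccl (7 of 23), Fbxw (6 of 23) and Ugt (5 of 22). Olfactory receptors, with 63 of 1087 (5.80%), were at the level of all promoters. In 87.0% of olfactory and 93.3% of vomeronasal receptors there was no island at all.

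By coverage and width the H3K27me3-only group was led by Sfi1, Begain, Krt83, Krt81, Gdf2, Gm9936, Defb19, Iqcf6, Tbx3 and Krt82. The Sfi1 islands on chromosome 11 (82.6 kb in both libraries) held 609 and 533 counts per kb, where H3K27me3 islands averaged 61.0 and 52.9. It was 1 of 3 genes of the group, with Brox and Sspn, under an island of over 500 counts per kb, and 1158 promoters remained in the group without such islands. Begain, a postsynaptic density gene on chromosome 12, had islands of 63.6 and 47.8 kb at 82.4 and 84.5 counts per kb. Tbx3, a T-box factor of limb and heart on chromosome 5, had 58.2 and 10.8 kb, and its nearest H2AK119ub1 islands were 9.53 and 578 kb away. Other members were Bmp4, a secreted growth factor (10.2 and 13.6 kb), Grin2a, an NMDA receptor subunit (9.0 and 9.2 kb), and Wnt2 (3.4 and 3.6 kb). Of ribosomal protein genes 7 of 76 and of proteasome genes 5 of 38 were in it, against 5.58% of all promoters, with at most 47.5% of the promoter covered, as at Rpl5, and 5.9% in both libraries at Rpl23.

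**Figure D4:**
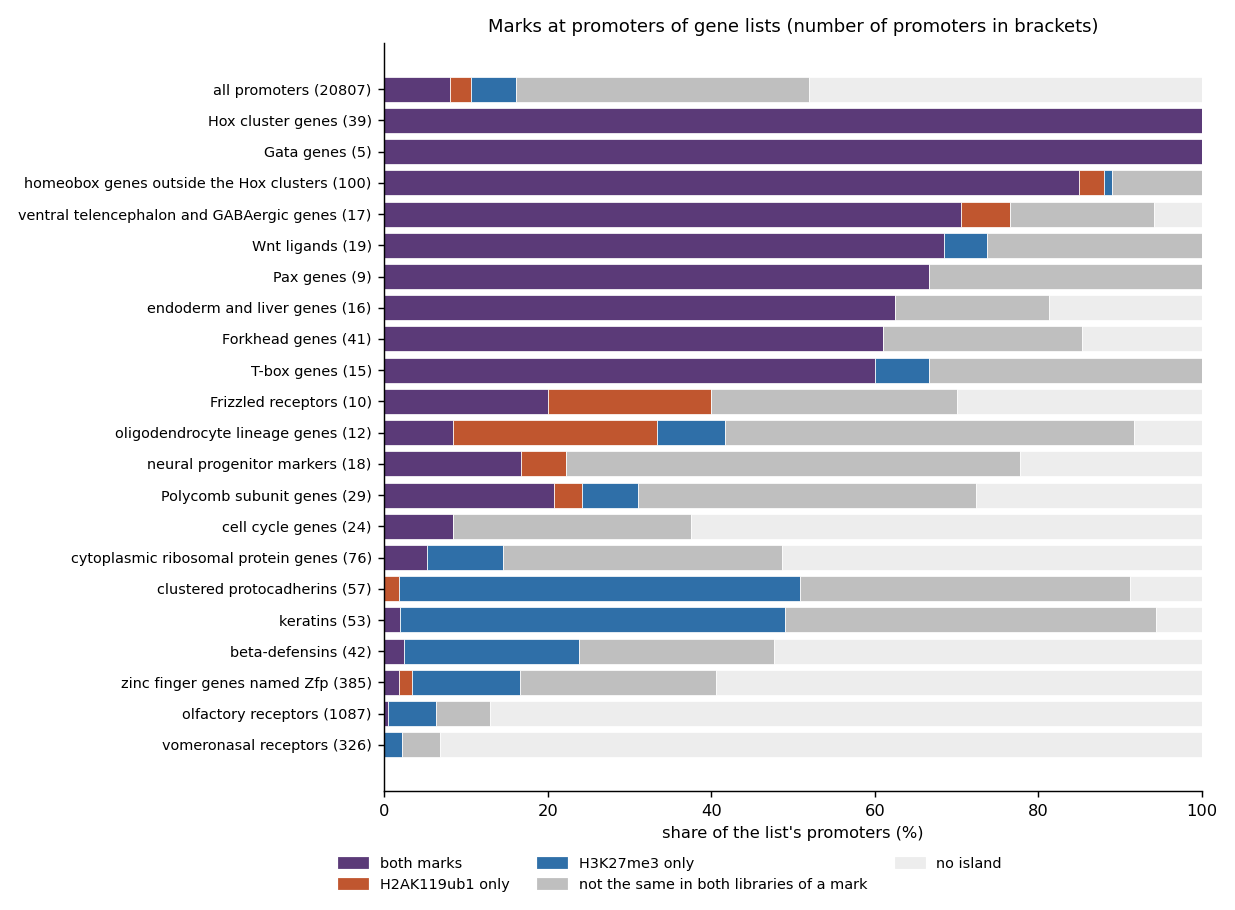
Share of promoters (%, x axis) in each group, for all 20807 promoters and for 21 gene lists with their number of promoters in brackets. Purple is both marks, orange H2AK119ub1 only, blue H3K27me3 only, darker grey promoters that differed between the libraries of a mark, and light grey no island. Both marks fill the Hox and Gata bars, H3K27me3 only is widest in clustered protocadherins (28 of 57) and keratins (25 of 53), and no island is widest in the chemosensory receptors.

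Markers of neural progenitors were spread over the groups. Of 18 markers, 4 (22.2%, among them Sox2, Vim and Fabp7) had no island in any of the 4 libraries, against 48.1% of all promoters. Both marks were called at 3 (16.7%, Gfap, Hes1 and Msi1), against 8.01%. Tnc had H2AK119ub1 only, and 10 (55.6%) differed between libraries of a mark, against 35.8% of all promoters. Nes, an intermediate filament gene, was among these 10, with H2AK119ub1 islands of 14.2 and 15.4 kb and an H3K27me3 island of 2.4 kb in replicate 2 alone. Notch1 had H2AK119ub1 of 77.4 kb in replicate 1 alone. Pax6 had H3K27me3 islands of 8.0 and 6.4 kb, with H2AK119ub1 in replicate 1 alone. RNA was not measured in these libraries, so the cell type was not checked by expression. The study sequenced RNA of hippocampal neurospheres separately, and those data were not used here. No island was found at 15 of 24 cell cycle genes, 39 of 76 ribosomal protein genes and 53 of 66 replication-dependent histone genes, against 48.1% of all promoters, which the ribosomal protein genes were close to. Of 29 Polycomb subunit genes themselves, 8 (27.6%) had none, among them Ezh2, Eed, Suz12 and Ring1, against 48.1% of all promoters. Pcgf1, Pcgf2, Pcgf6, Cbx2, Cbx8 and Rybp (20.7%) had both marks, against 8.01%. Phc2 had H2AK119ub1 only and Bmi1 and Pcgf3 had H3K27me3 only. The other 12 (41.4%) differed between libraries of a mark, against 35.8% of all promoters. Kdm2b had a single H2AK119ub1 island of 10.4 kb, in replicate 1.

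Libraries that had no part in the grouping were then read at the same promoters. The methods of the study, written for hippocampal tissue, divide a lysate among input, H2AK119ub1, H3K27me3 and H3K36me2. The control neurosphere H3K36me2 libraries may thus share chromatin and input with the libraries that defined the groups. H3K36me2, a mark of active chromatin that KDM2B can remove and that hinders PRC2, was called at 39.2% and 42.9% of H2AK119ub1-only promoters in the 2 control neurosphere libraries. It was called at 14.5% and 13.6% of promoters of both marks, at 5.08% and 5.25% of H3K27me3-only promoters and at 16.4% and 18.1% of promoters with no island, beside 21.0% and 19.6% of all promoters. Promoters that differed between the libraries of a mark were second highest, with 29.8% and 23.5%. H2AK119ub1-only promoters were highest and H3K27me3-only promoters lowest, in the same order of groups, within CpG-rich promoters (34.6% and 40.2%, 14.2% and 12.4%, 7.10% and 9.38%, and 14.7% and 17.8%) and within CpG-poor ones (49.1% and 48.5%, 14.7% and 15.0%, 4.20% and 3.46%, and 17.8% and 18.2%). With the groups rebuilt without H2AK119ub1 replicate 2 the shares were 42.7% and 33.8% at H2AK119ub1-only promoters, 17% and 12.3% at promoters of both marks and 5.19% and 5.56% at H3K27me3-only promoters. Without H2AK119ub1 replicate 1 they were 32.4% and 40.1%, 13.7% and 13.1%, and 13.7% and 8.7%, so that both marks and H3K27me3 only no longer differed in H3K36me2 replicate 1. With every library limited to the covered length of the smallest they were 37.3% and 33.0%, 9.84% and 7.38%, and 8.77% and 7.28%. Both marks and H3K27me3 only were then close in both H3K36me2 libraries. Of the 673 H3K27me3-only promoters at that length, 301 were in the group without the limit. In each of these settings H2AK119ub1-only promoters stood above both other groups by more than the difference between the 2 H3K36me2 libraries. Emx2 and Nkx2-2 had H3K36me2 islands in both libraries (10.6 and 14.6 kb, 3.6 and 15.2 kb), while Olig1 and Sox6 had none.

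In cKO neurospheres, promoters of both marks had H2AK119ub1 in 78.1% and 89.4% and H3K27me3 in 93.2% and 83.0% of cases. H2AK119ub1-only promoters had H2AK119ub1 in 40.2% and 59.0% and H3K27me3 in 9.9% and 6.1%, where 30.0% and 23.1% of all promoters had H3K27me3. H3K27me3-only promoters had H3K27me3 in 80.2% and 73.6% and H2AK119ub1 in 14.3% and 23.2%, where 24.9% and 34.2% of all promoters had H2AK119ub1. Taking both libraries of a mark together, 1032 of 1667 promoters of both marks (61.9%), 129 of 525 H2AK119ub1-only promoters (24.6%) and 474 of 1161 H3K27me3-only promoters (40.8%) fell in the same group again. Genotype and the spread between libraries cannot be told apart in those shares. The share of all promoters that each source placed in these groups is not given here. The same-group shares, also those of hippocampus below, thus have no baseline. In control hippocampus, where fewer islands were called, the shares were 24.3%, 3.24% and 6.37%. There H2AK119ub1 was called at 30.8% and 64.2% of promoters of both marks and at 11.6% and 37.5% of H2AK119ub1-only promoters, and H3K27me3 at 66.9% and 60.2% of promoters of both marks and at 31.9% and 13.5% of H3K27me3-only promoters. Over all promoters the hippocampal shares were 6.33% and 18.1% for H2AK119ub1 and 17.3% and 12.9% for H3K27me3, so that H3K27me3-only promoters were at the level of all promoters in replicate 2. H3K27me3 was called at 15.8% and 12.4% of H2AK119ub1-only promoters, near all promoters, and H2AK119ub1 at 3.88% and 8.87% of H3K27me3-only promoters, below all promoters. Of the 525 H2AK119ub1-only promoters, 44 had H2AK119ub1 in both hippocampal libraries and 53 had H3K27me3 in both.

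**Figure D5:**
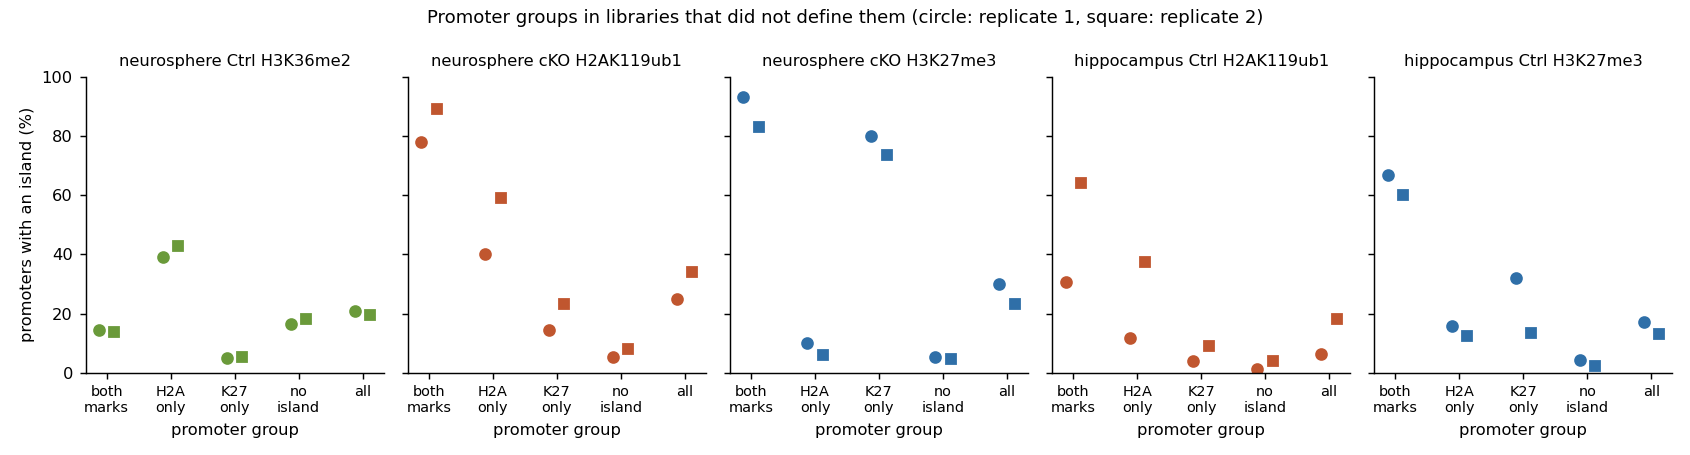
Share of promoters with an island (%, y axis) by promoter group (x axis, H2A only and K27 only standing for H2AK119ub1 only and H3K27me3 only) in libraries that did not define the groups, with circles for replicate 1 and squares for replicate 2. Promoters that differed between the libraries of a mark are not drawn as a group. H3K36me2 is highest at H2AK119ub1-only promoters (39.2% and 42.9%) and lowest at H3K27me3-only promoters, and in cKO neurospheres H3K27me3 is found at 80.2% and 73.6% of H3K27me3-only promoters.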

How the data were processed

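ChIP-seq islands were used as deposited. Per the labels and the methods of the study, cells were fixed with formaldehyde, chromatin was digested with micrococcal nuclease and sonicated, and the authors trimmed reads with cutadapt, aligned them to mm10 with Bowtie2 2.4.5, removed duplicates with samtools and called islands in each library against input with SICER (window 200 bp, gap 600 bp, FDR 0.01, version not given in the sources used here). Each deposited file gives island positions and a read count per island, not normalised by the authors. A region with no island has an unknown count, not a count of 0, and the files give no depth and no score per island.

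Gene starts came from GENCODE vM21 and sequence from GRCm38, the assembly of mm10. The 4 libraries were grouped by their labels. A single start per gene was used, and chromosomes X and Y were left out. Values per library were compared with two-sided exact permutation tests over 6 splits, which cannot give a p under 0.333, with Benjamini-Hochberg adjustment over 7 tests. Groups of promoters are counts by rule with no test. Genes were named if among the 10 with the widest islands (both marks) or the highest coverage (a single mark), at most 2 per island, if in a gene list, in a leading symbol family, or named by the study. The members and the 40 gene lists were chosen with earlier results of these data known. The grouping was tested on simulated islands and recovered 200 of 200 planted promoters in each marked group. Python 3.11.15, numpy 2.4.6, pandas 2.3.3 and scipy 1.17.1 were used. Some genes and sequences that the naming rule selects are not reported here.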

Additional observations from a re-analysis of the deposited data

How the results depend on the processing

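When each library was limited to the covered length of the smallest, taking islands in order of counts per kb, 976 promoters had both marks, 276 H2AK119ub1 only and 673 H3K27me3 only. Without the limit, 184 of these 276 and 301 of these 673 were in the same group, so the others were new to it. The lowest density kept was 19.2 counts per kb in H2AK119ub1 replicate 2 and 43.4 to 57.8 in the other libraries. The difference between marks (H2AK119ub1 minus H3K27me3) then turned to 0.0231 (log2) for promoters with an island and -0.221 percentage points for island bases in promoters. Requiring 50% of the promoter covered left 192 with H2AK119ub1 only and 624 with H3K27me3 only. Any annotated transcript start gave 828 with H2AK119ub1 only. An island in at least 1 library of a mark gave 4514, 4034 and 2260 promoters. Leaving out each library in turn gave 1749 to 3427 promoters with both marks, 607 to 3570 with H2AK119ub1 only, 1330 to 2921 with H3K27me3 only and 10463 to 13044 with no island. Over the same runs the difference ranged from -1.06 to 0.395 (log2) for covered length, -0.871 to 0.438 (log2) for promoters with an island, -0.00317 to 0.973 percentage points for island bases in promoters, and -0.643 to 0.000994 (log2) for width at promoters of both marks. These directions turned without H2AK119ub1 replicate 2, or replicate 1 for island bases, and the cause was not tested.

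With the replicate number as a replicate block the differences were as without it (13.2 percentage points for the CpG-rich share, p = 0.5 in the exact paired sign-flip test, the smallest that 2 pairs allow), and no call changed. The CpG-rich share kept its direction in 11 of 11 alternatives, from 8.78 points without H2AK119ub1 replicate 2 to 17.6 without replicate 1. The log2 difference in median island width (0.50) kept its direction in 8 of 8, from 0.09 with islands of at least 2 kb to 1.06 at equal covered length. Removing islands over 500 counts per kb, chosen after seeing the data, left 1667, 525 and 1158 promoters in the marked groups. With 2 libraries a mark no p-value could fall under 0.333 (0.5 paired), and the files give no depth, so a promoter without an island is one where none was called.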

Other observations

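Other gene lists are set beside all control neurosphere promoters, of which 8.01% had both marks, 2.52% H2AK119ub1 only, 5.58% H3K27me3 only and 48.1% no island, while 35.8% differed between the libraries of a mark. Of 45 glutamate and GABA receptor genes 11 had both marks, 2 H2AK119ub1 only, 4 H3K27me3 only and 16 no island. Potassium channels had both marks at 22 of 92 promoters, and 48 differed between the libraries of a mark. Both marks were found at 6 of 18 Notch pathway genes, 4 of 10 Hedgehog pathway genes, 4 of 18 BMP ligands and antagonists, 5 of 12 secreted Wnt antagonists, 2 of 24 Wnt effectors and R-spondins and 3 of 18 Sox genes, the Wnt effectors being at the level of all promoters. Among 7 CDK inhibitors Cdkn2a alone had both marks, with H2AK119ub1 islands of 8.4 and 6.6 kb and H3K27me3 islands of 24 and 9 kb, and 4 had no island. Of 8 pluripotency genes 4 had no island and none was in a marked group, and of 18 germline genes 6 had no island and 1 had both marks. NADH dehydrogenase genes had no island at 29 of 44. Of the 10 genes the study names, 6 had both marks and 4 differed between libraries; among the latter Eomes, a factor of intermediate progenitors, had H3K27me3 islands of 10.8 and 6.8 kb and H2AK119ub1 of 6.8 kb in replicate 1 alone.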
